A study of Mus musculus with 16 samples.

Results

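The regions described here are stretches of the mouse genome that were open, by peak calls from ATAC-seq (a transposase inserts sequencing adapters where DNA is accessible), in every library of SPOP-mutant prostate organoids treated with DHT and in no library of the other 3 groups. Merging all peaks of the 16 lists (chromosomes 1 to 19, X and Y) that shared 1 bp or more gave 86616 regions. A library calls a region if its list has a peak there. In all, 1418 of the 86616 regions (1.64%) were called in the 4 SPOPmut DHT libraries and in none of the other 12. They are 2.66% of the 53310 regions called in all 4 SPOPmut DHT libraries. The peak calls of all 16 libraries chose these members, so counts of calls in them are a description and no test. The organoids carried either the control genotype or an SPOP mutation, whose site and means of introduction the labels do not give, and every library of both genotypes also carries the label sgNT. Organoids of each genotype received 10 nM dihydrotestosterone (DHT) or ethanol (EtOH) for 24 h in mouse organoid medium that lacked mEGF, which gave 4 groups of 4 libraries: Control EtOH, Control DHT, SPOPmut EtOH and SPOPmut DHT. Nothing in the labels tells whether libraries of the same group are separate cultures, and a p-value therefore measures only the spread between these libraries, which may be technical. The peak lists hold between 57245 (Control EtOH 2) and 69644 peaks (SPOPmut DHT 4), and without read counts in them the depth of each library is unknown. A region without a call was not shown to be closed, since signal below the caller's limit is not in the lists.

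SPOP is the substrate-recognition subunit of a cullin 3 ubiquitin ligase, is recurrently mutated in prostate cancer, and its reported substrates include the androgen receptor, its coactivators and ERG. DHT is the most potent natural ligand of the androgen receptor, which in the nucleus binds DNA as a dimer at inverted repeats of the hexamer AGAACA, often at enhancers that pioneer factors such as FOXA1 have opened. Open regions far from gene starts are therefore the usual place to look for androgen-dependent regulation in prostate epithelium.

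Few of the members lay at a gene start, and those that did are shown first because they are the ones whose DNA could be read here. Of the 1389 members on the chromosomes read for this, 17 (1.22%) overlapped a promoter window, defined as the 250 bases before to the 50 bases after a start in RefSeq (build mm10), against 12.4% of all regions and 23.5% of the regions called in all 16 libraries. Of these 17 members, 7 lay at a protein-coding gene: Ifi205 and Ifne (interferon system genes), Serpina3f (a serine protease inhibitor), Scd3 (a stearoyl-CoA desaturase), Igsf6, Asb11 and Aadacl2fm1. The other 10 lay at starts of genes of other classes, and among them Gm12153 and Gm41638 had the highest mean peak areas of the 17. Peak area is the authors' value from the peak caller, the area under its significance track, with a minimum just over 200 in every list. At Gm12153 (chr11:43991730-43992639) it was 987, 818, 1017 and 1181 in SPOPmut DHT 1 to 4, and at Gm41638 (chr17:83959584-83960391) it was 988, 846, 861 and 1137. At Ifne, which encodes interferon epsilon, an interferon of epithelia (chr4:88879926-88880694), peak area was 744, 674, 592 and 735. All 3 members lay well above the caller's minimum in each library.

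The 3 sequences below are the 250 bases before the start of those genes whose window holds the hexamer AGAACA or TGTTCT (the same letters on the other strand) inside the member and whose area was highest. They are taken from RefSeq's promoters of build mm10 and written 5′ to 3′ along the gene's strand. Capitals mark the hexamer and, in Gm52522, also the AP-1 motif TGAGTCA, which reads as TGACTCA on the other strand. The windows are chr4:88880202-88880451, minus strand, for Ifne, chr11:43991612-43991861, plus strand, for Gm12153, and chr2:110646345-110646594, minus strand, for Gm52522.
Ifne: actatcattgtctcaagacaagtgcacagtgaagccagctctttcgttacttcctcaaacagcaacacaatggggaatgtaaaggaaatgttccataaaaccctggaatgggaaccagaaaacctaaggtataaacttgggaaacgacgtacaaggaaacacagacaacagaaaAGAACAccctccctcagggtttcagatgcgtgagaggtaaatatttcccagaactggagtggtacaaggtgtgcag
Gm12153: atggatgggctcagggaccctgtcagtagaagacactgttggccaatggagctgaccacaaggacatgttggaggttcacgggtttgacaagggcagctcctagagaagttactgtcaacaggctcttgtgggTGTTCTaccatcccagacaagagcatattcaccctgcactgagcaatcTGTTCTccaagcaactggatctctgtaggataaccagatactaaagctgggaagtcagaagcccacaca
Gm52522: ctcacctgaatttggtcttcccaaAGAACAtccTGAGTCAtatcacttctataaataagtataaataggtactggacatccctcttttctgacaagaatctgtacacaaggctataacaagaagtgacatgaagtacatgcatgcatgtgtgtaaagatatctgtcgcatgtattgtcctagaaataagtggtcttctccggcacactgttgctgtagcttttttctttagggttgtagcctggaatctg

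Counted from 1 at the 5′ end, the hexamer starts at position 175 in Ifne, at positions 134 and 182 in Gm12153 and at position 25 in Gm52522, where the AP-1 motif starts at position 34. The hexamer, on either strand, was present in 6 of the 17 member promoters (Ifne, Gm12153, Gm52522, Serpina3f, Gm33702 and Gm33968), inside the member in 4 of them, and in 6233 of all 32851 promoter windows. The complete inverted repeat, both hexamers facing each other across 3 bases, was in 0 of the 17 and in 3 of the 32851. The FOX motif TGTTTAC was in 1 (Gm41638), AP-1 in 1 (Gm52522), the GATA factor motif, spelled AGATAA, in 3 (Gm39920, Gm41638 and Scd3), the grainyhead motif AACCNGTT in 1 (Aadacl2fm1) and the ETS motif CCGGAAGT in 0 of the 17, all read on both strands, against 3.65%, 5.20%, 11.2%, 2.09% and 3.89% of all windows. GC content of the 17 windows had a median of 44.7%, against 52.7% over all windows. These matches describe letters in a window and no binding, and 17 promoters say nothing of the members away from gene starts.

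Every other call pattern that shares part of the rule was also populated. Of the 5151 regions called in all 4 SPOPmut DHT libraries and in no Control DHT library (5.95% of all regions), 2958 (57.4%) were also called in all 4 SPOPmut EtOH libraries and 1420 (27.6%) in none. Of the 3775 regions called in all 4 SPOPmut DHT libraries and in no SPOPmut EtOH library (4.36% of all regions), 1685 (44.6%) were also called in all 4 Control DHT libraries and 1420 (37.6%) in none. So most of what separated SPOPmut DHT from Control DHT was open in the mutant without DHT, and the commonest state of what separated SPOPmut DHT from SPOPmut EtOH was open in the control with DHT. Of the 1420 regions with no call in either of those groups, 1418 also had none in Control EtOH and are the members. Both comparisons share the SPOPmut DHT libraries, so their counts are not independent of each other.

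**Figure D1:**
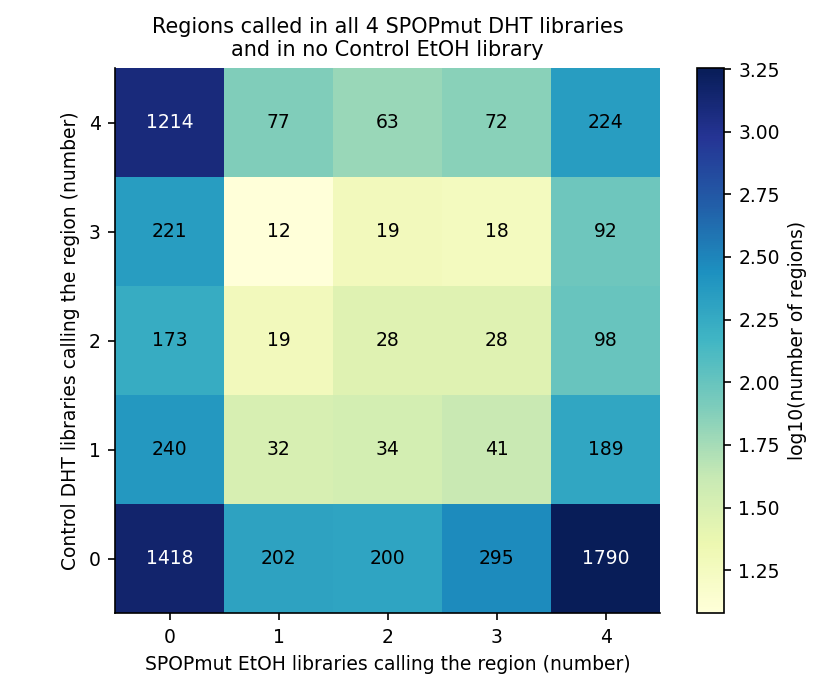
Number of regions called in all 4 SPOPmut DHT libraries and in no Control EtOH library, by the number of SPOPmut EtOH libraries (x axis) and of Control DHT libraries (y axis) that call them, coloured by log10 of the number. The members are the 1418 regions at the lower left, the counts at the other corners are 1790, 1214 and 224, and the cells between the corners hold 12 to 295 regions.

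Just outside the rule lay 444 regions called in all 4 SPOPmut DHT libraries and in exactly 1 other library, which was a Control DHT library for 240, an SPOPmut EtOH library for 202 and a Control EtOH library for 2. Their median peak area in the SPOPmut DHT libraries was 437, against 431 for the members. Control DHT 3 alone made 132 of these single calls and SPOPmut EtOH 3 made 95, whereas Control DHT 2 made 14 and SPOPmut EtOH 2 made 21. Short of the rule by 1 SPOPmut DHT library, 695 regions were called in 3 of the 4 SPOPmut DHT libraries and in no other library, with a median area of 277. A further 877 were called in 2 and 1677 in 1. The same rule applied to the other groups gave fewer regions: 528 for Control EtOH (0.61% of all regions), 514 for SPOPmut EtOH (0.593%) and 367 for Control DHT (0.424%).

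To describe the pattern in libraries that had no part in the choice, regions were chosen anew on 8 libraries and looked up in the other 8. Regions chosen on libraries 1 and 2 of each group (called in both SPOPmut DHT libraries and in none of the other 6) numbered 1984 (2.29% of all regions), and 1418 of them are the members (71.5%). They were called at 95.9% in SPOPmut DHT 3 and 97.7% in SPOPmut DHT 4, at 11.3% and 6.85% in Control DHT 3 and 4, at 8.87% and 5.80% in SPOPmut EtOH 3 and 4, and at 0.857% and 0.706% in Control EtOH 3 and 4. SPOPmut DHT lay far above the other 6 libraries with no overlap, while the same libraries called 66.5% to 76.2% of all regions. The means were 96.8% ± 1.28 (SD, n = 2) and 5.74% ± 4.28 (SD, n = 6), a difference of 91.0 percentage points (exact permutation test over libraries, two-sided, p = 0.0357, which is the smallest that 28 arrangements allow, and 0.0357 after Benjamini-Hochberg adjustment over the 2 tests). Every member meets this narrower rule by definition, so SPOPmut DHT 3 and 4 had to call at least 71.5% of the chosen regions. The other 6 libraries call no member, so they could call only the rest of the chosen regions. The lack of overlap and the p-value of the permutation test were therefore fixed before the test. The members' number was known before the test, and its p-value is no independent support for them.

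Regions chosen on libraries 3 and 4 numbered 2950 (3.41% of all regions), of which 48.1% are members. They were called at 70.9% in SPOPmut DHT 1 and 59.8% in SPOPmut DHT 2, and at 0.0339% to 4.92% in the 6 libraries numbered 1 and 2 of the other groups. The groups again did not overlap, with means of 65.3% ± 7.84 (SD, n = 2) and 2.11% ± 1.79 (SD, n = 6) and a difference of 63.2 points (exact permutation test, two-sided, p = 0.0357, adjusted 0.0357). The shares found again thus differed between the directions, and SPOPmut DHT 1 and 2 have the shorter lists of that group (61791 and 58800 peaks, against 66532 and 69644). With an SPOPmut DHT library left out, 1 library stands against 6 and the smallest p allowed is 0.143. The borders of the regions came from all 16 lists, the tested libraries included. Here too the members meet the rule by definition, so SPOPmut DHT 1 and 2 had to call at least 48.1%. The other 6 libraries could call only chosen regions that are no members, so this result was fixed in part before the test.

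**Figure D2:**
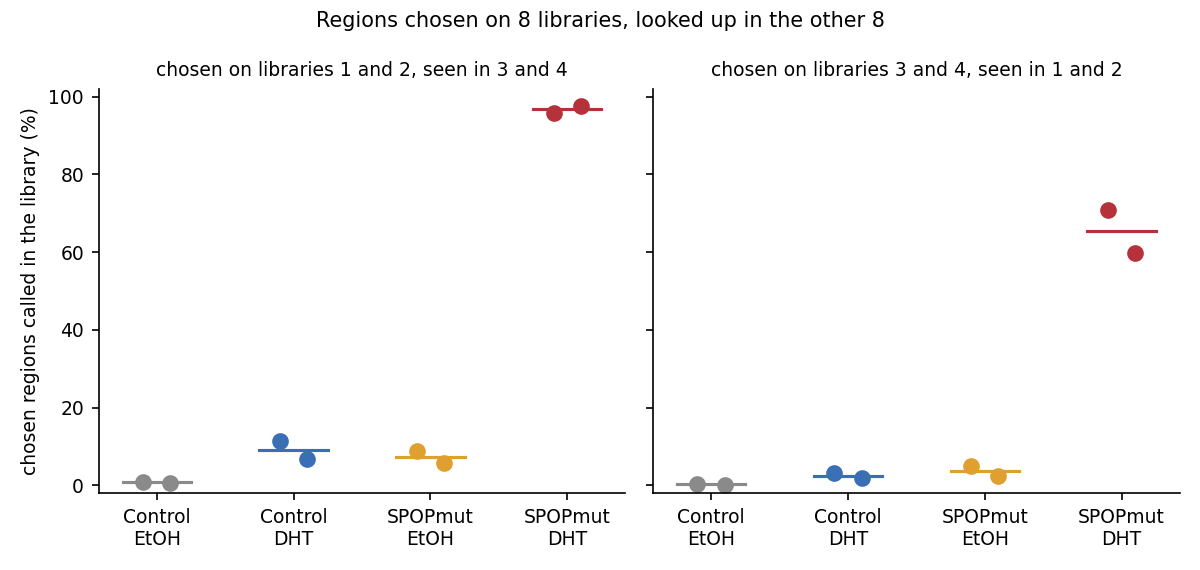
Percent of the rechosen regions called in each library that had no part in the choice (points) with the group mean (line), for 1984 regions chosen on libraries 1 and 2 (left) and 2950 chosen on libraries 3 and 4 (right). SPOPmut DHT lies at 95.9% and 97.7% on the left and at 70.9% and 59.8% on the right, and no other library exceeds 11.3%.

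Leaving out 1 library at a time showed which libraries set the members' number. Regions chosen on the other 15 libraries were called in the library left out at 89.1%, 74.9%, 97.5% and 99.2% for SPOPmut DHT 1 to 4. They were called at 0.978% to 8.52% in Control DHT, at 1.46% to 6.28% in SPOPmut EtOH and at 0 to 0.0705% in Control EtOH. For each SPOPmut DHT library the regions called were the 1418 members, and for each other library they were its single calls given above. These shares therefore restate the counts just outside the rule. SPOPmut DHT 2, the shortest list of its group, was the most restrictive, and without it 1892 regions met the rule.

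As peaks, the members were weak. Their median area was 413, 359, 453 and 530 in SPOPmut DHT 1 to 4, where the median of all peaks of the same lists was 802, 788, 786 and 802. The share of members under their list's own median was 87.7%, 91.0%, 86.2% and 80.5%. Regions called in all 4 SPOPmut DHT libraries and in some of the other 12 were also weak. By the number of such other libraries, their median area was 423 to 571, against 431 for the members. Regions called in all 12 others had a median area of 1332. By percentile within the list, the median member stood at 26.9, 21.9, 30.4 and 35.6. SPOPmut DHT 4 gave the highest values and SPOPmut DHT 2 the lowest, the same order as the lengths of those lists. Between libraries 1 member's area varied by a median coefficient of variation of 18.7%, with the highest library at 1.52 times the lowest. In 919 members (64.8%) at least 1 library had an area under 400, and 435 (30.7%) fell under percentile 10 in some library, whereas 112 (7.90%) were above percentile 50 in all 4. In 1400 of the 1418 (98.7%) each library contributed exactly 1 peak.

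**Figure D3:**
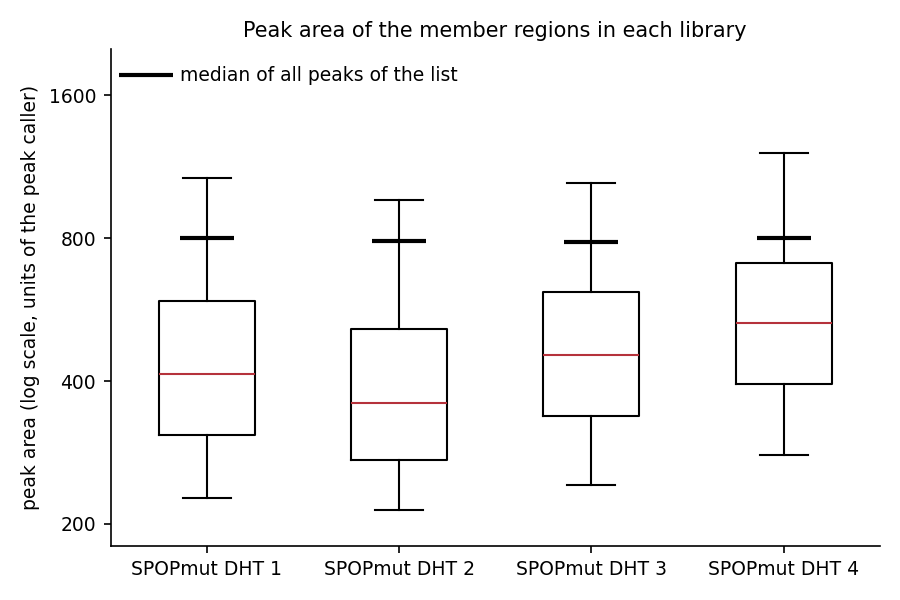
Peak area of the 1418 members in each SPOPmut DHT library on a log scale (box, quartiles with the median in red; whiskers, percentiles 5 and 95), with the median over all peaks of the list as a black bar. The members' medians of 413, 359, 453 and 530 lie below the bars at 802, 788, 786 and 802.

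A small set of members had strong peaks in all 4 libraries, well away from the caller's limit. The highest lay inside Vti1a, which encodes a SNARE protein of vesicle transport, at chr19:55519900-55521014, with areas of 2072, 1799, 2053 and 2527 in SPOPmut DHT 1 to 4. Vti1a also held the next member at chr19:55455074-55456268, with areas of 1889, 1883, 1803 and 2219. In the other 12 lists neither stretch had a peak. Arl15, an ARF-like small GTPase, had its strongest member 31.3 kb outside the gene body, at chr13:114188197-114189408, with an area of 1948 ± 171 (SD, n = 4). All 3 of these peaks were above percentile 76 of their lists in each library. Gprc5d (chr6:135121653-135122464) followed with 1847 ± 91.3, and Dpyd, the first enzyme of pyrimidine breakdown, with 1747 ± 113 at chr3:119288061-119289007. Mecom, a zinc finger transcription factor, had a member inside the gene at chr3:30254346-30255154 with 1666 ± 80.1. Stk3, a core kinase of the Hippo pathway, had one inside the gene at chr15:35005533-35006306 with 1681 ± 107. None of these 4 had a library under percentile 72. Qtrt1, Gsta3 (a glutathione transferase), Bdnf (a neurotrophin), 1700010B08Rik and Erg complete the 12 highest. Erg is the ETS factor that gene fusions place under androgen control in human prostate cancer and a reported SPOP substrate. Its member, at chr16:95615669-95616603, lay 29.5 kb from the gene body, with areas of 1722, 1358, 1688 and 1957. Over all 13 regions at Erg, SPOPmut DHT had 4 to 5 calls, against 5 to 8 in Control EtOH, 6 to 7 in Control DHT and 4 to 7 in SPOPmut EtOH. At the other end, members near Acot9 and inside Babam2 and Itpk1 passed with a lowest area of 200.2 to 200.3, at the caller's limit.

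The members were distal and narrow. Their median width was 493 bp (quartiles 400 and 626.5 bp, range 173 to 2170 bp), against 622 bp over all regions and 1037 bp for the regions called in all 16 libraries. Of the 1418, 716 (50.5%) had their place inside the body of a protein-coding gene, 525 lay outside one but within 100 kb, and 177 (12.5%) had none within 100 kb. Over all regions the inside share was 53.1% and the share without a gene 9.02%. Only 47 members (3.31%) lay within 1 kb of a gene's end or start, against 13.9% of all regions, and the median distance to one was 25.5 kb against 15.6 kb. The regions that the same rule gave for the other groups were also narrow and distal: SPOPmut EtOH had a median width of 442 bp with 4.47% within 1 kb, Control DHT 460 bp with 3.54%, and Control EtOH 419.5 bp with 2.65%. Promoter overlap on the chromosomes read was 1.62%, 3.14% and 1.38% in those sets. The members lay closer to other regions than those sets did, with a median gap to the nearest region of 2.62 kb against 4.00, 4.04 and 5.11 kb, and 3.06 kb over all regions. A region open in all 16 libraries lay within 10 kb of 754 members (53.2%), against 57.1% of all regions. Exons and introns were not analysed here.

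Members were spread over all chromosomes except Y, unevenly. Chromosome 2 held 169 (11.9% of members, 7.90% of all regions), chromosome 3 held 109 (7.69% against 5.36%) and chromosome X 49 (3.46% against 2.23%). Chromosome 14 held 26 (1.83% against 3.30%), chromosome 18 held 29 (2.05% against 3.22%) and chromosome 11 held 68 (4.80% against 6.97%). Chromosome 2 also held 12.5% of the regions called in SPOPmut EtOH alone and 4.36% of those called in Control DHT alone, and it took 8.44% ± 0.0259 of all called regions in SPOPmut EtOH and 8.42% ± 0.0474 in SPOPmut DHT, against 6.999% ± 0.037 in Control EtOH and 6.999% ± 0.0599 in Control DHT (SD, n = 4 each). Set against the mutant's own open regions, the members were 3.77% of the chromosome 2 regions called in all 4 SPOPmut DHT libraries, 3.71% on chromosome 3 and 4.31% on X, against 2.66% over all chromosomes, and 1.74% on chromosome 14. The excess on chromosome 2 was thus also present relative to regions that SPOPmut DHT calls throughout. DNA copy number was not analysed here.

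Most members stood alone. With members joined where the gap was at most 50 kb, 1116 (78.7%) were single, 106 chains held 2, 19 held 3, 7 held 4 and 1 held 5. The chain of 5 spans chr16:4730824-4829940 around Cdip1 and Hmox2 (heme oxygenase 2). Among the chains of 4 were those at Chm (32.4 kb), Bcl2 (45.2 kb), Lhfp (46.5 kb), Abhd12 (67.6 kb), Stk3 (79.7 kb) and Prss23 (86.2 kb). At Chm, Bcl2 and Lhfp no region within the chain was open in all 16 libraries. The tightest chain of 3 covered 6.48 kb at Ptpn1, a tyrosine phosphatase, where all 3 regions present were members, and at Arl15 3 members in 15.3 kb were likewise the only regions.

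By nearest gene body within 100 kb, 1241 members (1.57% of the 78807 assigned regions) were assigned to 1039 genes, 6.52% of the 15932 genes with a region. Of these genes 882 had 1 member, 126 had 2 and 31 had 3 or more. Assignment to a gene is by position alone and says nothing of which gene a region acts on. Lhfp (a tetraspan membrane protein gene, chr3:53041547-53261679) had the most, 8 of its 23 regions. It had 4 with genes assigned within 25 kb, no more than Chm, Bcl2 and Stk3, which each had 4 members inside the gene, and 5 with areas of 400 or more. Of those 8, 4 were inside the gene and 4 lay 40.5 to 86.4 kb beyond it, and the strongest, at chr3:53249484-53250537, had areas of 1495, 1276, 1426 and 1840. At Lhfp 9, 9, 10 and 9 regions were called in Control EtOH 1 to 4, 8 in each Control DHT library, 13, 13, 13 and 12 in SPOPmut EtOH, and 20, 21, 21 and 22 in SPOPmut DHT. With the 8 members set aside, SPOPmut DHT called 12 to 14 and SPOPmut EtOH 12 to 13, but setting members aside lowers the SPOPmut DHT count by construction.

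Chm, which encodes Rab escort protein 1 and lies on chromosome X, had 5 members among 13 regions. It had 2 to 3 calls in Control EtOH, 3 to 4 in Control DHT, 4 to 6 in SPOPmut EtOH and 11 to 12 in SPOPmut DHT, of which 6 to 7 were in regions that are no members. Stk3 had 4 members among 24 regions, with calls of 7 to 9, 8 to 9, 12 to 14 and 18 to 22 in the same order of groups. Bcl2, the anti-apoptotic protein, had 4 of 26, with 10 to 14, 11, 14 to 17 and 19 to 24 calls. Abhd12, a lysophospholipid lipase, had 4 of 14, with 5, 6, 5 to 7 and 11 to 13 calls. Gm29958 had 4 of 18, with 4, 7 to 9, 6 to 9 and 14 to 16 calls. Dpyd and Arl15 had 4 each, and so did Pde4d, a cyclic AMP phosphodiesterase, where the 52 regions of a gene of 1302 kb make 4 members a small share (7.69%). In the regions that are no members, SPOPmut DHT lay above every other library at Gm29958 (10 to 12 calls). It did so at Chm (6 to 7), Abhd12 (7 to 9) and Stk3 (14 to 18) with a tie. There the top SPOPmut EtOH count equalled the lowest SPOPmut DHT count (6, 7 and 14). At the other genes these counts overlapped between SPOPmut DHT and SPOPmut EtOH. They were 12 to 14 against 12 to 13 at Lhfp, 15 to 20 against 14 to 17 at Bcl2 and 14 to 17 against 16 to 17 at Dpyd. At Arl15 they were 7 to 10 against 6 to 8, and at Pde4d 32 to 40 against 33 to 36.

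**Figure D4:**
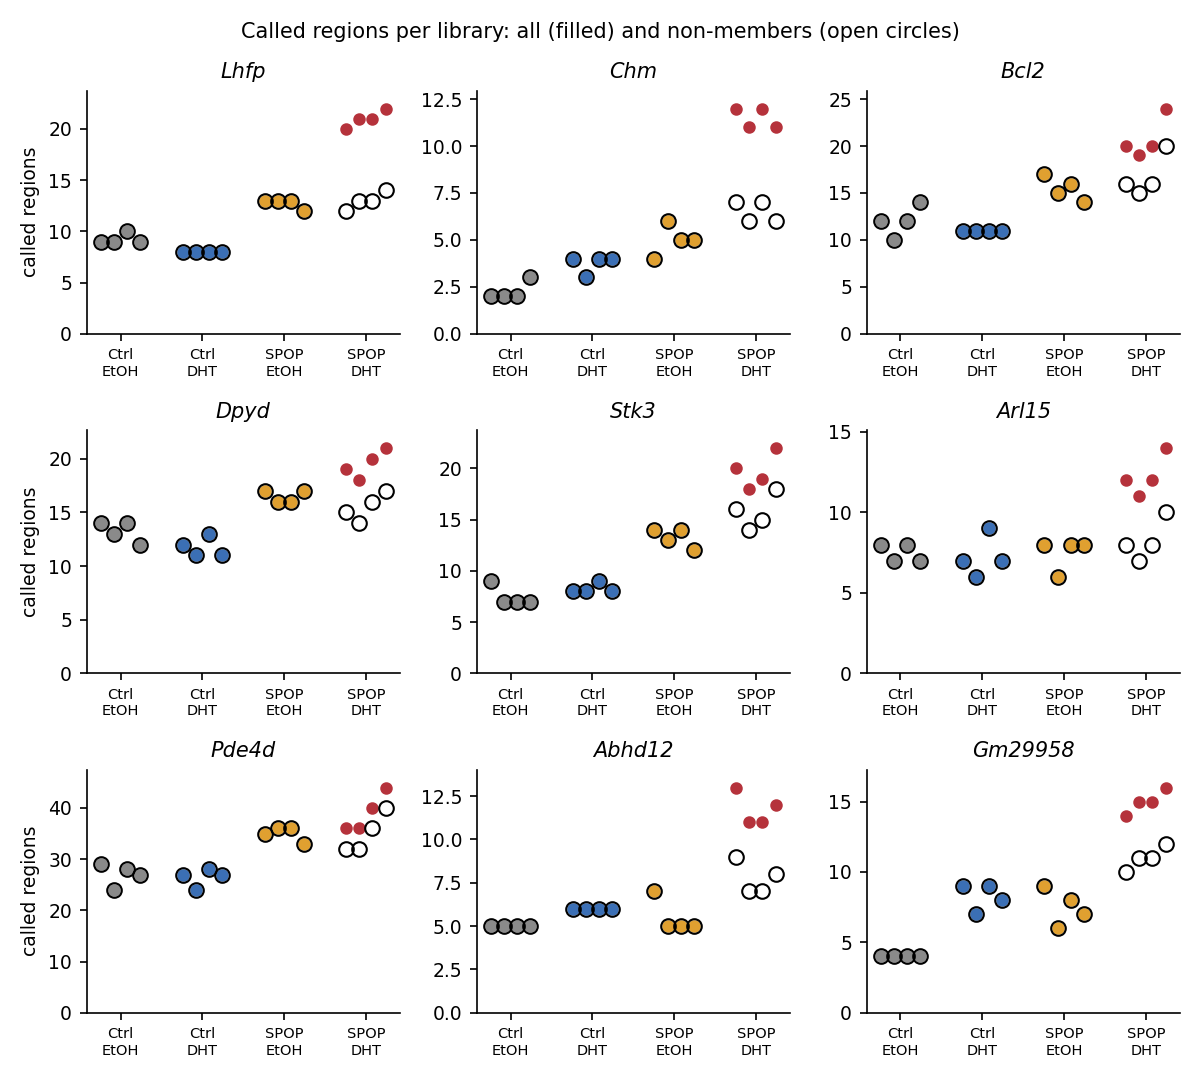
Called regions in each library at the 9 genes with the most members, in 4 groups of 4 libraries. Filled points count all regions and open circles the regions that are no members, and the gap between them in SPOPmut DHT is the number of members (8 at Lhfp, 5 at Chm and 4 at the other genes).

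Some genes with 3 members had few regions in all. Abcc2, a multidrug export pump, had 3 members of 7 regions and calls of 0 to 2 in Control EtOH, 0 to 1 in Control DHT, 1 to 3 in SPOPmut EtOH and 5 to 6 in SPOPmut DHT. Mrps30, a mitochondrial ribosomal protein gene, had 3 of 6, with 2 calls in every Control library, 2 to 3 in SPOPmut EtOH and 6 in every SPOPmut DHT library. Kcne4, a potassium channel subunit, had 3 of 11, with 2, 1, 4 to 5 and 8 to 11 calls. These totals include the 3 members, which by the rule only SPOPmut DHT calls. In regions that are no members SPOPmut DHT had 2 to 3 calls at Abcc2, 3 at Mrps30 and 5 to 8 at Kcne4. At Abcc2 these counts overlapped those of SPOPmut EtOH. At Mrps30 and Kcne4 the lowest SPOPmut DHT count equalled the top SPOPmut EtOH count. Vti1a, Cux1, Sytl5, Cdc73, Sox6, Ank and Lpp also had 3.

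Genes of the androgen response held 18 members among their 606 regions (2.97%, against 1.57% of all assigned regions), at 13 of the 46 genes with a region. Sox6, a SoxD transcription factor, had 3 members, as had Ank, a pyrophosphate transporter. Azgp1, a secreted zinc-binding glycoprotein, had 2, and Fkbp5, Hpgd, Acsl3, Zbtb16, Ell2, Map7d1, Elovl5, Zmiz1, Tmprss2 and Inpp4b had 1 each. With every list reduced to the 57245 peaks of the shortest, the list had 10 members among 547 regions (1.83%, against 1.76% of assigned regions), so its excess was not kept. Fkbp5, a co-chaperone of steroid receptors, had its member inside the gene at chr17:28430235-28430921, with areas of 662, 648, 534 and 742. At Zbtb16, a zinc finger repressor, the member at chr9:48786833-48787689 had areas of 260, 371, 247 and 584. At Tmprss2, a transmembrane serine protease, the member's areas of 207, 241, 263 and 278 were under the members' median of 431 in all 4 libraries. Fkbp5 and Zbtb16 had more calls with DHT than with EtOH in both genotypes, without overlap. Total calls at Fkbp5 were 6 to 8 in Control EtOH, 12 to 14 in Control DHT, 8 to 9 in SPOPmut EtOH and 14 to 17 in SPOPmut DHT, and at Zbtb16 1 to 3, 7 to 10, 1 to 2 and 9 to 14.

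Sox6 had members at chr7:115825586-115826416 (924, 301, 358 and 1018), chr7:115956474-115956855 (312, 304, 327 and 549) and chr7:116051114-116051682 (815, 508, 665 and 843). In the first of these SPOPmut DHT 2 and 3 were far below SPOPmut DHT 1 and 4, and in the others SPOPmut DHT 2 was the lowest. Ank had members with mean areas of 577 ± 62.3, 414 ± 84.5 and 522 ± 88.4 (SD, n = 4).

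The shares below stand against 1.57% over all assigned regions. Prostate secretory genes held 4 members among only 26 regions, 2 at Azgp1 and 2 at Mmp7 (a matrix metalloproteinase), so the 15.4% rests on 2 genes. The Azgp1 members lay side by side, 5800 and 4909 bp from the gene (chr5:137975366-137976077, mean area 933 ± 150, and chr5:137976187-137977038, 298 ± 52.6; SD, n = 4). The stronger member at Mmp7 lay inside the gene (chr9:7697306-7697915) with areas of 770, 736, 741 and 888. Mmp7 had 4 calls in every Control library of either treatment, 2 in every SPOPmut EtOH library and 6 in every SPOPmut DHT library. The last count includes the 2 members, which by the rule only SPOPmut DHT calls. Without them it was 4, the same as in the Control libraries. Luminal epithelium genes held 5 members among 184 regions (2.72%), among them 1 each at Epcam, Cdh1, Ehf and Cd24a. Basal epithelium genes held 1 among 207 (0.483%). Trp63, Krt5 and Krt8, keratin and lineage genes of basal and luminal cells, had no member, nor had Foxa1, Hoxb13, Spop, Ncoa3 or Trim24. In the list of SPOP and its reported substrates 5 of 215 regions were members (2.33%), at Erg, Setd2, Gli3, Nanog and Myc. Steroid receptors and partner factors had 7 of 394 (1.78%), with 2 at Runx2 and 1 each at Pou2f1, Grhl2, Klf4 and Nfia among them.

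Lists of pathways and cell functions had shares from 0 to 3.70%, on both sides of the 1.57% over all assigned regions. The Hippo pathway had 5 of 230 (2.17%), 4 at Stk3 and 1 at Stk4, the other mammalian Ste20-like kinase of the pathway, whose member (chr2:164145930-164146531) had areas of 488, 508, 723 and 811. The Wnt pathway had 8 of 426 (1.88%), with 3 inside Lgr4, an R-spondin receptor, and 2 near the receptor Fzd6. PI3K and mTOR genes had 8 of 321 (2.49%), lipid and cholesterol metabolism 6 of 236 (2.54%), cell adhesion and axon guidance 12 of 641 (1.87%), and TGF-beta and BMP 5 of 326 (1.53%). EGF receptor and ERK genes had 3 of 312 (0.962%), AP-1 and immediate early genes 1 of 114 (0.877%), Notch and Hedgehog 2 of 303 (0.66%) and cell cycle genes 0 of 125. Housekeeping genes, included as genes with no stated tie to androgen, had 3 of 81 (3.70%), 2 near Ywhaz and 1 at Hprt, a share above that of the androgen response list. Of the 22 lists, 12 were above 1.57% and the median list stood at 1.82%.

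Markers of cell types other than epithelium moved with the groups to some extent. The markers of prostate epithelium had 65 to 80 called regions in a library, with 9 of 10 genes called in every library. Immune markers had 6 to 7 calls in Control EtOH, 3 to 5 in Control DHT, 6 to 7 in SPOPmut EtOH and 8 to 10 in SPOPmut DHT, with Adgre1 at 0 in all 16. The 2 members in that list were at Ptprc, 71213 and 70685 bp from the gene, and without them the immune counts of SPOPmut DHT are 6 to 8. Endothelial markers had 16 to 18, 13 to 16, 11 and 9 to 13 calls, stromal markers 8 to 10, 7 to 9, 6 to 7 and 5 to 7, and neuroendocrine markers 4, 3 to 4, 2 to 4 and 2 to 4, in the same order of groups. In longer gene lists for those cell types, stroma had 0 members of 43 regions, neuroendocrine genes 0 of 37, endothelium 1 of 79 (Erg) and immune genes 2 of 20 (Ptprc). Of all assigned regions 1.57% were members, and lists this small are too short for these counts to be read as low or high. In these bulk cultures a change in the share of cells of a type and a change of signal per cell cannot be told apart.

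Regions around the members were called more often in the same group. Within 10 kb of a member lay 2448 regions that are no members and were called in 2 or more libraries. They were called at 82.2%, 79.7%, 87.6% and 90.5% in SPOPmut DHT 1 to 4. Relative to each library's rate over all regions that are no members and were called in 2 or more libraries, this was a gain of 10.2 ± 0.603 percentage points in SPOPmut DHT (SD, n = 4) and 1.81 ± 0.588 in SPOPmut EtOH. It was −2.90 ± 0.532 in Control DHT and −8.02 ± 1.10 in Control EtOH. The 4 groups did not overlap. At 50 to 100 kb the values were 4.12 ± 0.0827, 3.08 ± 0.374, −1.35 ± 0.193 and −2.52 ± 0.292 in that order, so the mutant groups stayed above the Control groups and the groups lay closer together. These neighbours include regions that missed the rule by a few calls, and the members' position was itself chosen from these libraries, so the values are a description.

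**Figure D5:**
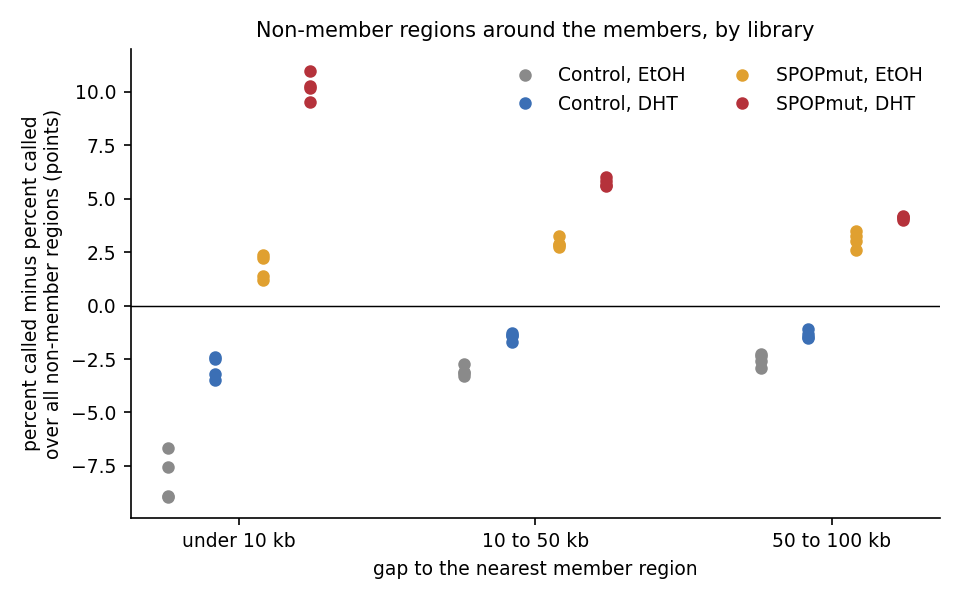
Percent of regions called in each library at 3 distances from the nearest member, minus that library's percent at any distance. Both percents are over regions that are no members and were called in 2 or more libraries. Points are libraries; within 10 kb the group means are 10.2 (SPOPmut DHT), 1.81 (SPOPmut EtOH), −2.90 (Control DHT) and −8.02 (Control EtOH) points, and the spread between groups narrows with distance.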

How the data were processed

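Accessibility was measured by ATAC-seq in 16 libraries of mouse prostate organoids, 4 in each of the 4 groups, and each library has its own deposited peak list. Per the submitters' processing notes, the tools were Bowtie2 2.3.4.1, SAMtools 1.8 and Genrich (version not given in the sources used here) and the build was mm10. The authors deposited for each peak a signal (its area, just over 200 or more), the −log10 p at its summit, and a score with an upper limit of 1000. These values were used only to describe, rank or filter peaks within a list, and they depend on a depth that is unknown. Pooled signal tracks were not used here.

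Peaks were merged at 1 bp overlap. A region was assigned to the nearest protein-coding gene body within 100 kb (RefSeq, mm10), the shortest where several covered its midpoint. Promoter windows and sequences came from RefSeq (mm10), whose table is not complete and was not used for chromosome 18. Python 3.11.15, NumPy 2.4.6, pandas 2.3.3, SciPy 1.17.1 and Matplotlib 3.10.9 were used, and the choice and test were tested on simulated data. The only test is the exact permutation test over libraries that the choice did not use. Its result was in part fixed by the members, which both choices include by definition. Lists held 512 gene names, of which 511 were matched. The genes named are the 20 with the most members (ties by median within-list percentile), the genes of the 12 members with the highest and the 3 with the lowest lowest-of-4 percentile, up to 3 genes with the most members in each list, and Foxa1, Hoxb13, Fkbp5, Tmprss2, Zbtb16, Trp63, Krt5, Krt8, Spop, Ncoa3, Trim24 and Mecom. Genes that the rule takes but that are not described are not reported here. Other genes, named where a list or chain holds them or at promoters, were chosen after their values were seen. Members, lists and tests were chosen with earlier results of these data known. Alternatives tried were the merging by summits, stricter areas, equal list lengths, distances and leaving out each library.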

Additional observations from a re-analysis of the deposited data

Results flagged for a closer look

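Groups of 4 libraries were checked for a library apart from the rest. The values checked were peak areas of the 12 highest and 3 lowest members and of the 17 members at promoters, and the members' medians. Peak areas of the other members named in the text were not checked. Shares called in a left-out library and call rates around the members were checked too. Of 50 such groups 1 was picked out, and chance alone picks out about 1 in 20. It is the member at the promoter of Serpina3f, where the peak area was 511, 541 and 529 in SPOPmut DHT 1, 3 and 4 and 293 in SPOPmut DHT 2. SPOPmut DHT 2 has the shortest list of its group, and it was the lowest of the 4 libraries in 854 of the 1418 members (60.2%), against 358, 165 and 41 for SPOPmut DHT 1, 3 and 4. Its area was a median of 0.803 times the median of the other 3 libraries over all members. At Serpina3f it was 0.553 times, a ratio that 66 members (4.65%) reached or went below in this library. A low value in SPOPmut DHT 2 was therefore common, and one this low was not.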

How the results depend on the processing

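The number of members was 1418 as reported and between 1233 and 1655 under the other overlaps, summit windows, list lengths and stricter areas in every list, 1103 with no peak of the other 12 lists within 1 kb, but 499 when only SPOPmut DHT peaks of area 400 or more counted, with 427 of them assigned to a gene against 1241. Leaving out 1 library gave 1418 to 1892 members, 1241 to 1652 of them assigned. A similar count hides different regions: with area 400 or more in every list 1233 regions met the rule and 499 were members as reported, and at equal list lengths 1421 did, of which 1060 (74.6%). The count of 1655, with peaks covering at least 50% of the region, was chosen after seeing the data. The planned overlap of part of a peak changes nothing, since peaks lie wholly inside their merged region. Lhfp had 4 members within 25 kb of the gene, and 5 with area 400 or more, in place of 8.

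In the test on libraries with no part in the choice, the differences of 91.0 and 63.2 points had an exact permutation p of 0.0357. The members fixed this p for the first difference in advance, and the second result in part. The labels give no pairing by replicate number. Deviations from the group mean correlated at −0.0899 to 0.09 in the 24 pairs of libraries with the same number, 0 of them over 0.1. By these correlations 6 of 16 libraries were closest to their own number. The correlations do not register list length, and number 2 had the shortest list in every group. Those lists held 57245 (Control EtOH), 58038 (Control DHT), 60661 (SPOPmut EtOH) and 58800 peaks (SPOPmut DHT). A link by number is therefore not excluded. With the replicate number as a block, the exact permutation test cannot go below p = 0.0625 (16 arrangements), and both differences, 91.0 and 63.2, had that p. With 1 library left out the differences were 90.0 to 92.2 and 57.7 to 68.8 points, with an exact permutation p of 0.0476 to 0.143. They were 93.2 and 67.2 with area 400 or more, and 82.9 and 81.2 at equal list lengths, with the same p as reported. The planned motif counts around summits were not run because no mm10 genome was used here. No result reversed. Of the other values compared under these settings, 62 of the main results and 115 of the remaining ones kept their side of the threshold or stayed close to the reported value, and 6 of the remaining ones moved. Close was a wide limit, under which 1892 members still counted as close to 1418. The planned overlap that changes nothing is among the settings counted, so the tally says little of how stable the results are. The lists give no depth, so weak calls near the caller's limit cannot be given an error.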
